A study of Mus musculus with 22 samples.

Results

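The BCL2 family decides whether a cell keeps its mitochondria intact or permeabilizes them and dies. Here 10 mouse genes of this family were followed across 10 conditions of one RNA-seq table. They are 6 BH3-only genes (*Bmf*, *Bcl2l11*, *Bbc3*, *Pmaip1*, *Bad* and *Bik*), 3 survival genes (*Mcl1*, *Bcl2* and *Bcl2l1*) and 1 effector (*Bax*). Each was chosen by name, through the RefSeq identifier of its entry, and each had exactly 1 entry among the 23286 of the table. They were measured in FPKM, a read density scaled both by transcript length and by library size, so levels of different genes can be set side by side.

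The cells were MEPMs, primary mesenchymal cells grown from the palatal shelves of wild-type mouse embryos at E13.5 and starved of serum overnight, and the study compared how PDGF and FGF act on them through MEK/ERK and PI3K. Of the 22 samples, 2 per condition received PD325901 (PD, a MEK inhibitor, 1 uM) before the ligand, 2 per condition received LY294002 (LY, a PI3K inhibitor, 10 uM), and 3 per ligand received the ligand alone. The ligand was either FGF (50 ng/mL of FGF1, given together with 1 ug/mL of heparin) or PDGF (30 ng/mL of PDGFA). Inhibitor conditions were collected at 1 hr and at 4 hr, and the ligand-alone conditions used here at 4 hr, so no condition here lacked a ligand. Times are those of ligand treatment, and each inhibitor was given earlier. For each gene the deposited table holds a single FPKM per condition, made from all of its samples together. Spread between samples and sequencing depth therefore could not be measured, no test was possible, and every ratio below compares pools. The palatal mesenchyme markers were present, with the 7 genes *Pdgfra*, *Pdgfrb*, *Osr1*, *Osr2*, *Prrx1*, *Twist1* and *Vim* summing to between 2118 and 3083 FPKM in every condition. Most of this was *Vim* (1600 to 2617 FPKM), a general mesenchymal gene, while *Osr2* (2.55 to 6.51 FPKM) and *Pdgfra* (2.57 to 9.47 FPKM) were low.

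In this family, survival proteins such as BCL2, BCL-xL and MCL1 hold the effectors BAX and BAK in check. BH3-only proteins carry stress and growth factor withdrawal signals. BIM and PUMA can bind all of the survival proteins, whereas NOXA favours MCL1 and BAD favours BCL2 and BCL-xL. In many cell types ERK phosphorylates BIM for degradation and AKT keeps FOXO transcription factors, which can drive the BIM gene, out of the nucleus.

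The levels spanned more than 3 orders of magnitude. *Bax* was the most abundant member, with a mean of 257 FPKM over the 10 conditions, above 98.5% of the 12298 entries that passed 1 FPKM in at least 1 condition. *Pmaip1* (117 FPKM) and *Mcl1* (82.8 FPKM) followed, then *Bcl2l1* (32.4 FPKM), *Bbc3* (29.0 FPKM) and *Bad* (19.2 FPKM). *Bcl2l11* (6.47 FPKM), *Bmf* (2.05 FPKM) and *Bcl2* (1.69 FPKM) were scarce. *Bik* did not pass 1 FPKM in any condition.

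**Figure D1:**
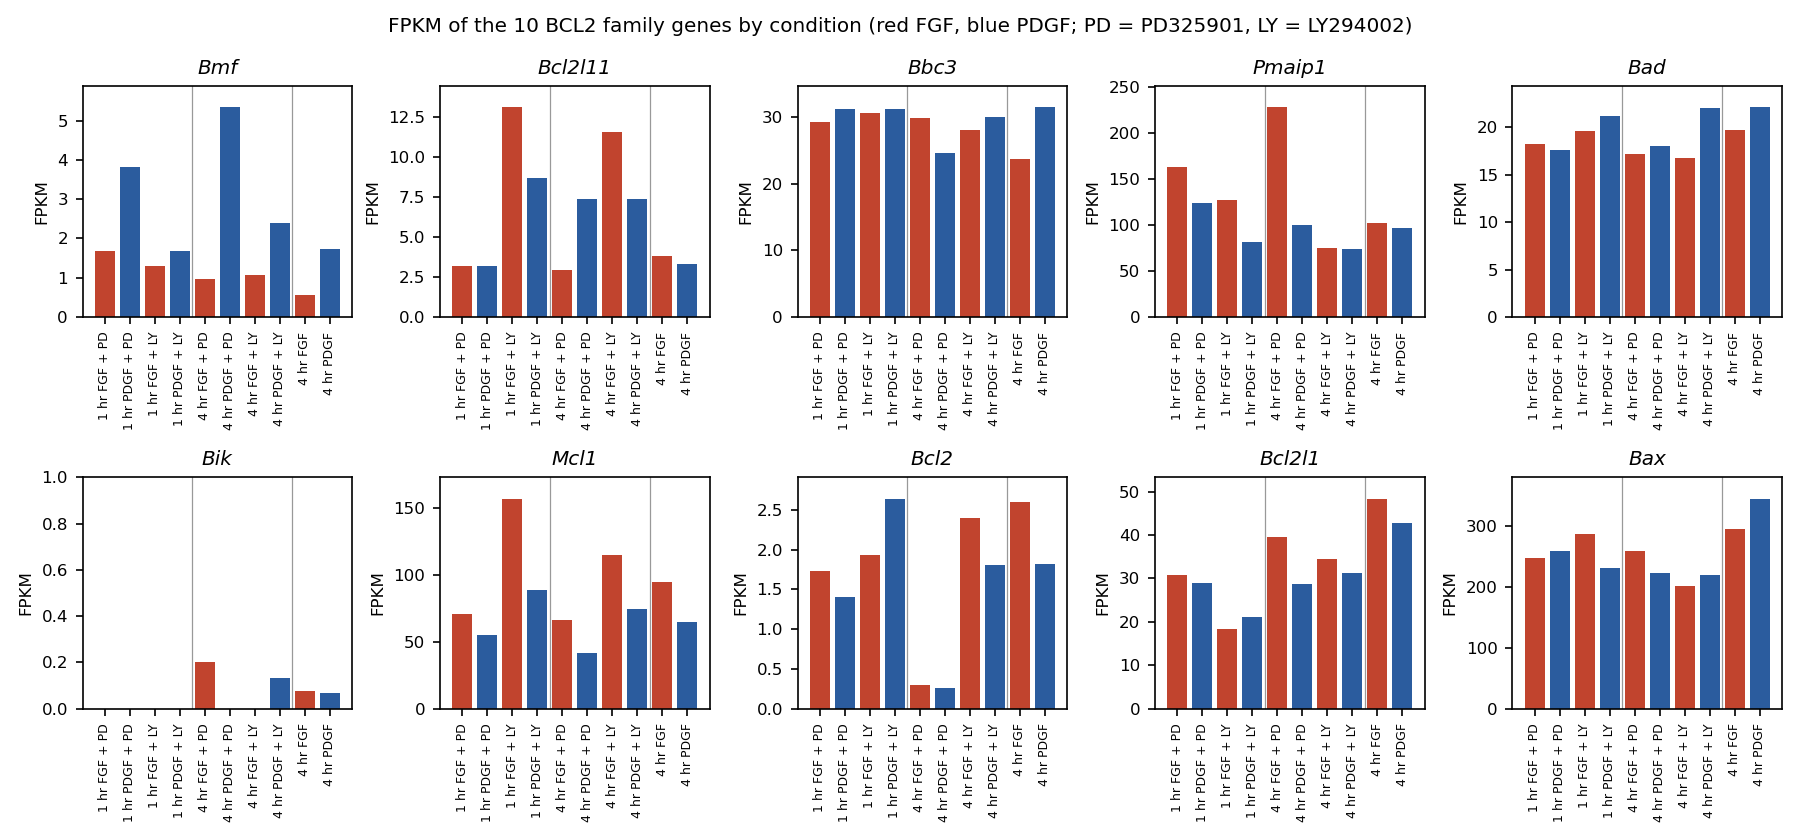
FPKM (y axis, linear, from 0) of each of the 10 genes in each of the 10 conditions (x axis), with FGF conditions in red, PDGF conditions in blue and vertical lines between the 1 hr inhibitor, 4 hr inhibitor and ligand-alone conditions. Each bar is 1 pooled value without an error bar. *Bcl2* stood at 0.303 and 0.256 FPKM in the 4 hr FGF + PD and 4 hr PDGF + PD conditions and above 1 FPKM in the other 8.

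*Bcl2* (chr1:106538178-106714274, minus strand, GRCm38), the founding survival gene of the family, was lower at 4 hr with PD than with ligand alone, under both ligands. At 1 hr it measured 1.73 FPKM in FGF + PD, 1.40 FPKM in PDGF + PD, 1.94 FPKM in FGF + LY and 2.65 FPKM in PDGF + LY. With FGF for 4 hr it measured 0.303 FPKM under PD and 2.40 FPKM under LY, against 2.60 FPKM for the ligand alone. With PDGF for 4 hr it measured 0.256 FPKM under PD and 1.81 FPKM under LY, against 1.82 FPKM for the ligand alone. Both 4 hr PD conditions thus lay below all of the other 8 conditions, and the share of all entries that do so was not counted.

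With FGF the log2 ratio of PD to ligand alone was -3.10, an 8.59-fold lower level, and 59 of the 11642 entries compared, *Bcl2* among them, had a ratio at least as low. With PDGF it was -2.83, a 7.11-fold lower level, reached by 37 of 11879 entries. In both comparisons *Bcl2* passed 1 FPKM only with ligand alone, so it was compared only through that condition. PI3K inhibition gave -0.12 with FGF and -0.011 with PDGF on the same scale. From 1 hr to 4 hr under PD the log2 ratio was -2.51 with FGF and -2.46 with PDGF, while under LY it was 0.31 with FGF and -0.55 with PDGF. The level itself was low throughout, and low entries spread more: among entries whose higher value lay between 1 and 5 FPKM, 20.1% were at least 1.5-fold lower with FGF + PD than with FGF and 12.1% were lower with PDGF + PD than with PDGF. On GENCODE M21, exons of *Bcl2* overlap those of D630008O14Rik on the opposite strand, and whether counting used strand is not given in the sources used here.

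*Mcl1* (chr3:95658788-95663176, plus strand), which encodes a short-lived survival protein, was the survival gene with the highest level. It measured 70.5 FPKM in 1 hr FGF + PD, 54.9 FPKM in 1 hr PDGF + PD, 157 FPKM in 1 hr FGF + LY and 89.0 FPKM in 1 hr PDGF + LY. At 4 hr it measured 66.2 FPKM in FGF + PD, 41.8 FPKM in PDGF + PD, 115 FPKM in FGF + LY and 74.7 FPKM in PDGF + LY, against 94.4 FPKM in FGF and 65.1 FPKM in PDGF. The order was the same under both ligands at 4 hr, with PD lowest, ligand alone between and LY highest.

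The PD level of *Mcl1* was below the LY level in all 4 matched pairs, with log2 ratios of -1.15 (FGF, 1 hr), -0.70 (PDGF, 1 hr), -0.79 (FGF, 4 hr) and -0.84 (PDGF, 4 hr). Of the 12298 entries, 20.9% were lower with PD in all 4 pairs, so the direction alone is common. The size was less so. At 1 hr, 214 of 11793 entries had a ratio at least as low with FGF and 509 of 11714 with PDGF. At 4 hr these were 816 of 11600 with FGF and 364 of 11816 with PDGF. *Mcl1* was also higher with FGF than with PDGF in all 5 matched pairs, by log2 ratios from 0.36 under PD at 1 hr to 0.82 under LY at 1 hr, and 7.57% of entries were higher with FGF in all 5. Against ligand alone the PD ratio was -0.64 with PDGF, past 1.5-fold, and -0.51 with FGF, short of it.

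*Bcl2l1* (chr2:152780668-152831728, minus strand) encodes BCL-xL, a survival protein of the outer mitochondrial membrane. It measured 30.8 FPKM in 1 hr FGF + PD, 28.9 FPKM in 1 hr PDGF + PD, 18.4 FPKM in 1 hr FGF + LY and 21.1 FPKM in 1 hr PDGF + LY. At 4 hr it measured 39.4 FPKM in FGF + PD, 28.8 FPKM in PDGF + PD, 34.4 FPKM in FGF + LY and 31.4 FPKM in PDGF + LY, against 48.4 FPKM in FGF and 42.8 FPKM in PDGF. Both ligand-alone levels were above all 8 inhibitor levels. At 1 hr the PD level was 1.67-fold above the LY level with FGF and 1.37-fold above it with PDGF, and under LY the 4 hr level was 1.87-fold above the 1 hr level with FGF and 1.49-fold with PDGF.

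*Bcl2l1* and *Bax* were the 2 members whose ligand-alone levels both lay above every inhibitor level. Among all 12298 entries 11.7% did so, and 9.25% lay below every inhibitor level in both. The ligand-alone conditions hold 3 samples each and the inhibitor conditions 2, and whether the 2 sets were prepared together is not given in the sources used here. Presence of an inhibitor and membership of a sample set cannot be told apart for such genes. None of the other 8 members had both ligand-alone levels above, or both below, all inhibitor levels.

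*Bcl2l11* (chr2:128126038-128162547, plus strand) encodes BIM, a BH3-only protein that can activate the effectors. It was above both ligand-alone levels in all 4 LY conditions and in 1 PD condition. The ligand-alone conditions used here were collected only at 4 hr, so the 1 hr levels had none at their own time. It measured 3.17 FPKM in 1 hr FGF + PD, 3.17 FPKM in 1 hr PDGF + PD, 13.1 FPKM in 1 hr FGF + LY and 8.71 FPKM in 1 hr PDGF + LY. At 4 hr it measured 2.96 FPKM in FGF + PD, 7.38 FPKM in PDGF + PD, 11.6 FPKM in FGF + LY and 7.40 FPKM in PDGF + LY, against 3.82 FPKM in FGF and 3.35 FPKM in PDGF. Thus 5 conditions, the 4 LY conditions and 4 hr PDGF + PD, lay above 7 FPKM and the other 5 below 4 FPKM. The share of all entries that split in this way was not counted.

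The LY to ligand-alone log2 ratio of *Bcl2l11* was 1.60 with FGF, reached by 100 of 11612 entries, and 1.14 with PDGF, reached by 249 of 11738. The PD to ligand-alone ratio was -0.37 with FGF but 1.14 with PDGF, reached by 407 of 11879 entries. The PD effect on the log2 scale was therefore 1.51 lower with FGF than with PDGF, a difference between pools that was not tested. Against LY, PD gave a log2 ratio of -2.05 with FGF at 1 hr, -1.46 with PDGF at 1 hr, -1.97 with FGF at 4 hr and -0.0027 with PDGF at 4 hr. In PDGF cells under PD the 4 hr level was 2.33-fold above the 1 hr level. The comparisons of PD and of LY with ligand alone share the same ligand-alone pool.

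Of the 10 genes, 8 had a promoter in the RefSeq-derived table (GRCm38.p6), *Pmaip1* and *Bik* being named only, with 16 promoters in all. The 250 bases before each transcription start were searched on both strands for 3 motifs chosen after the values were seen: GTAAACA, a core bound by FOXO factors, CCGGAAG, a core bound by ETS factors, and the palindrome CACGTG, an E-box. No match overlapped another. Over all 32851 promoters of the table, 3.17% held GTAAACA, 6.91% CCGGAAG and 6.02% CACGTG. The 3 windows shown are those of the members with a FOXO or ETS match, and set *Bcl2l11* and *Mcl1*, each past 1.5-fold between inhibitors, beside *Bbc3*, which stayed within 1.5-fold in all 9 main comparisons. Capitals mark the matches, in either orientation.
Bcl2l11 promoter, chr2:128125788-128126037, plus strand: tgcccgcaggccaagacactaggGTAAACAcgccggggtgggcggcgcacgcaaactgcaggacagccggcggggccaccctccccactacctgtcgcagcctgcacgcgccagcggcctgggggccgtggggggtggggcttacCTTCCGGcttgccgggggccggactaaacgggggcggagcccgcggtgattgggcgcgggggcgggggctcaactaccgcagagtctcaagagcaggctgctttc
Bbc3 promoter, chr7:16310011-16310260, plus strand: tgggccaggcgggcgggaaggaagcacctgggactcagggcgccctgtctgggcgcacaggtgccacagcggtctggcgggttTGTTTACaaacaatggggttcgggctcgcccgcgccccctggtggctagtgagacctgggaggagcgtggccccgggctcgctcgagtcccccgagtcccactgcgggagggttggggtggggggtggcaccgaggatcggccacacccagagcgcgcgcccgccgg
Mcl1 promoter, chr3:95658471-95658720, plus strand: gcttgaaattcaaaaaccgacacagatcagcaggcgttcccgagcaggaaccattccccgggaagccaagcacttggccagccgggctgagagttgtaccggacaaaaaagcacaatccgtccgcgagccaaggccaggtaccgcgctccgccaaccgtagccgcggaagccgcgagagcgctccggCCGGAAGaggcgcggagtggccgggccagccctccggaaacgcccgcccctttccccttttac
In the *Bcl2l11* window the FOXO letters begin 227 bases before the start and the ETS letters, read on the other strand, 105 bases before it. In the *Bbc3* window the FOXO letters begin 167 bases before the start, on the other strand. In the *Mcl1* window the ETS letters begin 63 bases before the start. The E-box letters occurred in 1 window of *Bbc3* and 1 of *Bax*. The FOXO letters thus stood in 1 of the 2 windows of *Bcl2l11* and in 1 of the 3 windows of *Bbc3*. That *Bbc3* window lies inside the gene, before a later start. Between highest and lowest condition *Bcl2l11* differed 4.45-fold and *Bbc3* 1.33-fold, and any part of the letters in this was not tested. A match is a description of the letters and not a measured site.

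*Bmf* (chr2:118528757-118549687, minus strand) encodes a BH3-only protein held on the cytoskeleton until it is released. It was lower with FGF than with PDGF in every matched pair. It measured 1.67 FPKM in 1 hr FGF + PD and 3.83 FPKM in 1 hr PDGF + PD, and 1.29 FPKM in 1 hr FGF + LY and 1.68 FPKM in 1 hr PDGF + LY. At 4 hr it measured 0.957 FPKM in FGF + PD and 5.34 FPKM in PDGF + PD, 1.08 FPKM in FGF + LY and 2.39 FPKM in PDGF + LY, and 0.570 FPKM in FGF and 1.74 FPKM in PDGF.

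The values ran from 0.570 to 1.67 FPKM over the 5 FGF conditions and from 1.68 to 5.34 FPKM over the 5 PDGF conditions. The groups did not overlap, though the highest FGF value and the lowest PDGF value were nearly equal, and 0.504% of the 12298 entries lay below PDGF in this way. For ligand alone the log2 ratio of FGF to PDGF was -1.61, reached by 18 of 11598 entries. Under PD it was -1.19 at 1 hr and -2.48 at 4 hr, and under LY it was -0.38 at 1 hr and -1.14 at 4 hr. For ligand alone and for PD at 4 hr, *Bmf* passed 1 FPKM only with PDGF, so it was compared only through that condition. Among entries whose higher ligand-alone value lay between 1 and 5 FPKM, 12.2% were at least 1.5-fold lower with FGF. Of all entries, 8.03% were lower with FGF in all 5 pairs. With PDGF, PD gave a log2 ratio of 1.62 to ligand alone, reached by 171 of 11879 entries, and LY one of 0.46. With FGF, LY gave 0.92. The FGF + PD and FGF levels at 4 hr were both under 1 FPKM, and no ratio was taken.

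*Pmaip1* (chr18:66458533-66465565, plus strand) encodes NOXA, a BH3-only protein that binds MCL1. It stood highest in 4 hr FGF + PD. It measured 163 FPKM in 1 hr FGF + PD, 124 FPKM in 1 hr PDGF + PD, 127 FPKM in 1 hr FGF + LY and 81.7 FPKM in 1 hr PDGF + LY. At 4 hr it measured 228 FPKM in FGF + PD, 100.3 FPKM in PDGF + PD, 75.5 FPKM in FGF + LY and 74.2 FPKM in PDGF + LY, against 102.5 FPKM in FGF and 96.8 FPKM in PDGF. PD exceeded LY in all 4 matched pairs, as it did in 23.2% of entries.

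The PD to ligand-alone log2 ratio of *Pmaip1* was 1.16 with FGF, reached by 353 of 11642 entries, and 0.051 with PDGF. The PD effect was thus 1.10 higher with FGF than with PDGF on the log2 scale, the opposite order from *Bcl2l11*, and this difference was not tested either. LY gave -0.44 with FGF and -0.38 with PDGF. Under PD at 4 hr, FGF exceeded PDGF by a log2 ratio of 1.19, while *Bcl2l11* gave -1.32 and *Bmf* -2.48 for the same pair of conditions.

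*Bbc3* (chr7:16308393-16318205, plus strand) encodes PUMA, a p53 target, and *Bad* (chr19:6941861-6951899, plus strand) a BH3-only protein that growth factor kinases control by phosphorylation. Both were nearly level. *Bbc3* had a lowest value of 23.7 FPKM in 4 hr FGF, a median of 29.9 FPKM and a highest value of 31.5 FPKM in 4 hr PDGF. *Bad* ran from 16.7 FPKM in 4 hr FGF + LY through a median of 18.9 FPKM to 22.1 FPKM in 4 hr PDGF. Of the 10541 entries above 1 FPKM in all conditions, 9.11% had a smaller log2 range over the 10 conditions than *Bbc3* and 8.59% a smaller one than *Bad*, while the corresponding shares were 96.6% for *Bcl2l11*, 95.0% for *Mcl1*, 91.1% for *Pmaip1*, 85.4% for *Bcl2l1* and 47.6% for *Bax*. *Bad* shares exon sequence with *Gpr137* on the opposite strand. *Bik* (chr15:83526862-83544634, plus strand), a BH3-only gene of the endoplasmic reticulum, was listed at 0 in 6 conditions and reached at most 0.203 FPKM, in 4 hr FGF + PD.

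*Bax* (chr7:45461697-45466898, minus strand) encodes the effector that forms pores in the outer mitochondrial membrane. It measured 248 FPKM in 1 hr FGF + PD, 258 FPKM in 1 hr PDGF + PD, 287 FPKM in 1 hr FGF + LY and 231 FPKM in 1 hr PDGF + LY. At 4 hr it measured 259 FPKM in FGF + PD, 223 FPKM in PDGF + PD, 201 FPKM in FGF + LY and 219 FPKM in PDGF + LY, against 295 FPKM in FGF and 345 FPKM in PDGF. The ratio to ligand alone passed 1.5-fold with PDGF + PD (log2 -0.63) and PDGF + LY (log2 -0.65) but not with FGF + PD (log2 -0.19) or FGF + LY (log2 -0.55). Of the 31-base words in *Bax* transcripts, 11.1% also occur in transcripts of other genes, and Gm45808 shares its exons on the same strand, so reads could have been split there. That share was at most 0.604% for the other 9 genes.

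**Figure D2:**
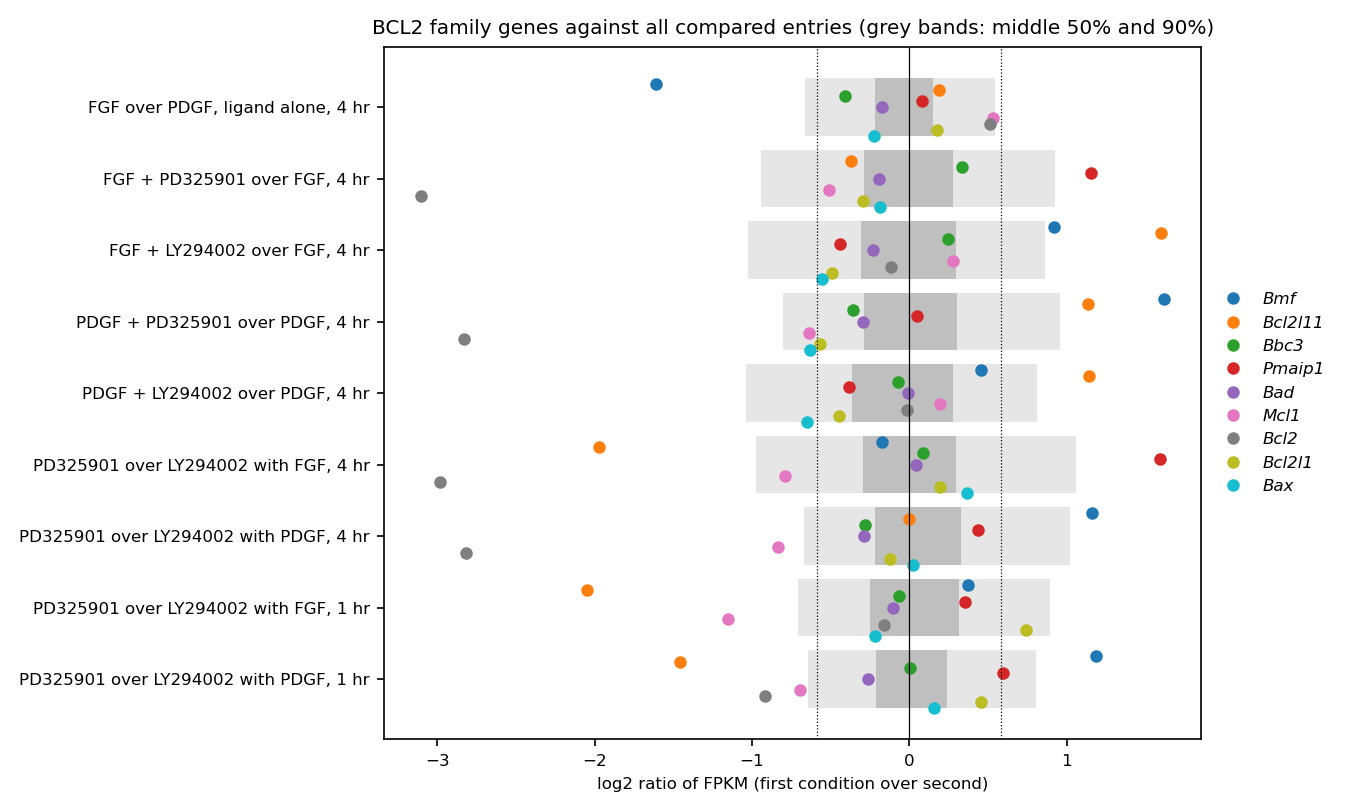
Log2 ratio of FPKM (x axis) of 9 members in each of the 9 main comparisons (y axis, first condition over second), 1 colored point per gene and pool pair. The dark and light grey bands hold the middle 50% and 90% of all entries compared and the dotted lines mark 1.5-fold. *Bcl2* lies far to the left in all 4 comparisons of 4 hr PD, from -3.10 to -2.82, and *Bbc3* and *Bad* stay within 1.5-fold in all 9.

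Of the 4 comparisons of an inhibitor with ligand alone, PDGF + PD had the most members past the size used here. A gene was compared where it passed 1 FPKM in either condition and counted at a ratio of at least 1.5-fold. In PDGF + PD against PDGF, 5 of the 9 members compared passed this size (2 higher, *Bmf* and *Bcl2l11*, and 3 lower, *Mcl1*, *Bcl2* and *Bax*), beside 21.5% of all 11879 entries. Of these, *Mcl1* (1.56-fold) and *Bax* (1.55-fold) were only just past it. For *Bax*, presence of an inhibitor and the sample set cannot be told apart. In FGF + PD against FGF, 2 of 8 passed (*Pmaip1* higher and *Bcl2* lower), beside 23.1% of 11642 entries, which is near the background. In FGF + LY against FGF, 2 of 9 passed (*Bmf* and *Bcl2l11*, both higher), beside 24.0% of 11612, and in PDGF + LY against PDGF 2 of 9 (*Bcl2l11* higher and *Bax* lower), beside 24.4% of 11738, again near the background. These counts depend on the filter, because *Bcl2* entered both PD comparisons, and *Bmf* that of FGF + LY, only through the condition where it was higher. *Bmf* in FGF + PD, at 0.957 FPKM against 0.570 FPKM in FGF, was left out by the same filter.

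The median log2 ratio of the members compared was -0.36 in PDGF + PD against PDGF and -0.24 in FGF + PD against FGF. It was -0.011 in PDGF + LY against PDGF and -0.12 in FGF + LY against FGF. The medians of all entries lay between -0.029 and 0.0063 in these 4 comparisons. For ligand alone, 1 of 9 members passed 1.5-fold between FGF and PDGF (*Bmf*, lower), beside 11.0% of 11598 entries, with a median of 0.082 for the members and -0.024 for all entries. *Bmf* entered this comparison only through PDGF.

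Set against LY, PD left 3 members lower and 1 higher with FGF at 4 hr (*Bcl2l11*, *Mcl1* and *Bcl2* lower, *Pmaip1* higher), beside 24.2% of all 11600 entries past 1.5-fold in either direction. With PDGF at 4 hr 2 were lower and 1 higher (*Mcl1* and *Bcl2* lower, *Bmf* higher), beside 19.7% of 11816. With FGF at 1 hr 2 were lower and 1 higher (*Bcl2l11* and *Mcl1* lower, *Bcl2l1* higher), beside 19.8% of 11793. With PDGF at 1 hr 3 were lower and 2 higher (*Bcl2l11*, *Mcl1* and *Bcl2* lower, *Bmf* and *Pmaip1* higher), beside 15.1% of 11714. *Mcl1* was the only member past 1.5-fold and in the same direction in all 4. How many of all entries do so was not counted. *Bcl2* entered both 4 hr comparisons only through LY.

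A ratio between a pair of genes within 1 condition does not depend on how that condition was scaled. The pairs below were chosen after the values were seen. The *Bcl2l11* to *Bcl2* ratio was 28.9 in 4 hr PDGF + PD and 9.75 in 4 hr FGF + PD, between 1.83 and 6.79 in the other 6 inhibitor conditions, and 1.47 in 4 hr FGF and 1.84 in 4 hr PDGF. The *Bmf* to *Bcl2* ratio was 20.9 in 4 hr PDGF + PD and 3.16 in 4 hr FGF + PD, against 0.219 in 4 hr FGF and 0.955 in 4 hr PDGF. Both ratios rested in part on *Bcl2* values near 0.3 FPKM.

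The *Pmaip1* to *Mcl1* ratio was taken between genes that were both above 40 FPKM throughout. It was 2.31 in 1 hr FGF + PD, 2.25 in 1 hr PDGF + PD, 3.45 in 4 hr FGF + PD and 2.40 in 4 hr PDGF + PD. It was 0.811 in 1 hr FGF + LY, 0.918 in 1 hr PDGF + LY, 0.659 in 4 hr FGF + LY and 0.993 in 4 hr PDGF + LY, with 1.09 in 4 hr FGF and 1.49 in 4 hr PDGF. All PD conditions lay above both ligand-alone conditions and all LY conditions lay below them. With PD, *Pmaip1* was higher and *Mcl1* lower than with LY in all 4 matched pairs, as were 23.2% and 20.9% of entries. The order of PD above LY in those pairs thus followed from the choice of genes. The share of gene pairs that separate in this way was not counted. *Mcl1* made up between 59.0% of the summed FPKM of the 3 survival genes in 4 hr PDGF + PD and 88.5% in 1 hr FGF + LY, and *Bcl2* at most 2.35%.

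**Figure D3:**
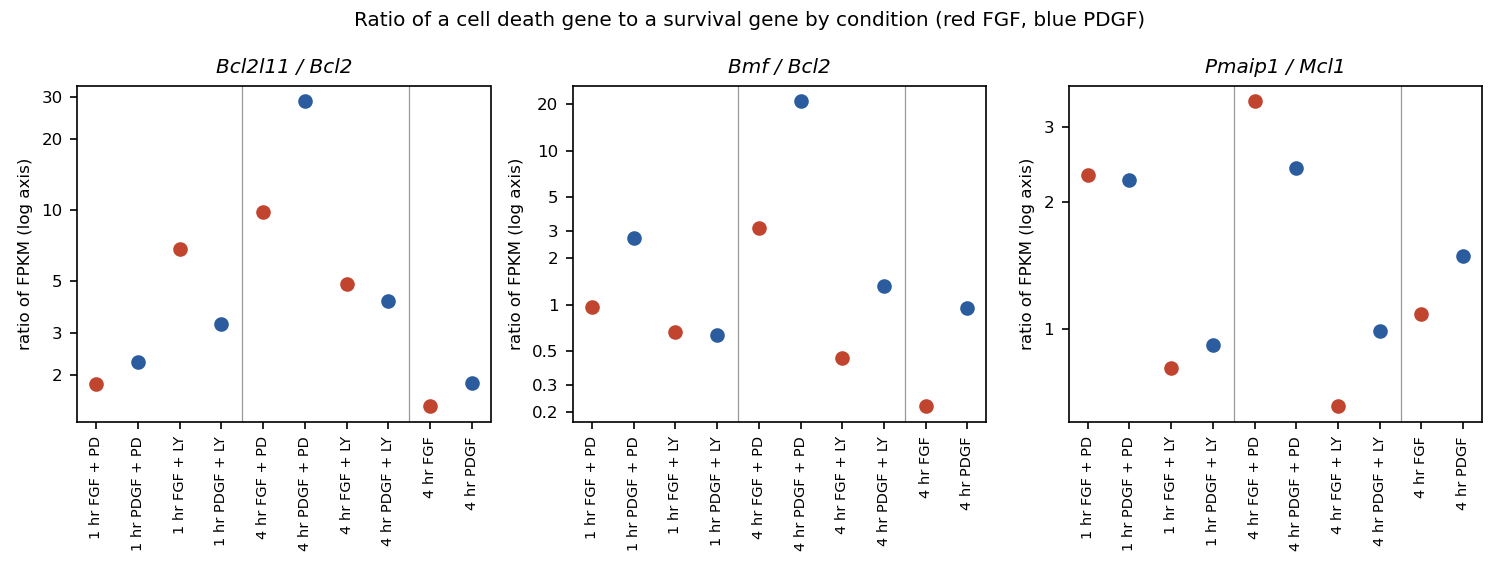
Ratio of FPKM (y axis, log scale) of *Bcl2l11* to *Bcl2*, *Bmf* to *Bcl2* and *Pmaip1* to *Mcl1* in each condition (x axis), 1 point per pooled condition, FGF in red and PDGF in blue. The first 2 ratios peak in 4 hr PDGF + PD at 28.9 and 20.9, and the third peaks in 4 hr FGF + PD at 3.45.

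The genes whose pattern over the 10 conditions was most like that of a member were found by the root mean square difference of centred log2 FPKM among 10368 genes above 1 FPKM in all conditions, for the 3 such members with the widest range. Nearest to *Bcl2l11* were *Lmbr1l* (distance 0.28), *Abtb1* (0.33) and *Glul* (0.36), with a median distance of 0.84 over all genes. Nearest to *Mcl1* were *Cnnm4* (0.19), *Irf2bp2* (0.20) and *Enc1* (0.21), with a median of 0.57. Nearest to *Pmaip1* were *Jund* (0.15), *Dot1l* (0.18) and *Relt* (0.18), with a median of 0.54. The 10 points share ligands, inhibitors and pools, so the distances describe likeness only.

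Around the family, 62 genes of 8 cell death and stress lists were all found in the table, and 52 were compared in each comparison. In FGF + PD against FGF 6 were at least 1.5-fold higher and 7 lower, 25% of those compared, beside 23.1% of all entries. In FGF + LY against FGF 10 were higher and 7 lower, or 32.7%, beside 24.0%. In PDGF + PD against PDGF 2 were higher and 4 lower, or 11.5%, beside 21.5%, and in PDGF + LY against PDGF 8 were higher and 8 lower, or 30.8%, beside 24.4%. The lists were thus above the share of all entries in both LY comparisons and below it in PDGF + PD. These comparisons use the ligand-alone pools, so presence of an inhibitor and the sample set cannot be told apart. Between PD and LY at 4 hr, 23.1% passed 1.5-fold with FGF and 7.69% with PDGF, beside 24.2% and 19.7% of all entries. At 1 hr, 21.2% passed with FGF and 11.5% with PDGF, beside 19.8% and 15.1%. Between FGF and PDGF alone 1 was higher and 3 lower, or 7.69%, beside 11.0%. The medians of the 52 genes lay between -0.075 and 0.032 in the 5 comparisons that use a ligand-alone pool.

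Among 14 further family members, 8 were compared. *Bok*, an effector-like gene, measured 31.4 FPKM in 4 hr FGF + PD, 5.43 FPKM in 4 hr FGF + LY and 14.6 FPKM in 4 hr FGF, and it measured 18.9 FPKM in 4 hr PDGF + PD, 7.12 FPKM in 4 hr PDGF + LY and 17.6 FPKM in 4 hr PDGF. It was at least 1.5-fold higher with PD than with LY in all 4 matched pairs, by log2 ratios from 1.11 to 2.53. How many of all entries do so was not counted. *Bnip3l*, which marks mitochondria for removal, went the other way, with 14.4 FPKM in 4 hr FGF + PD and 30.0 FPKM in 4 hr FGF + LY. *Bid*, the BH3-only link from death receptors, and the effector *Bak1* were highest in the ligand-alone conditions, a split that also marks the sample sets. *Bid* measured 19.4 FPKM in 4 hr FGF and 17.1 FPKM in 4 hr PDGF, and *Bak1* 48.3 FPKM in 4 hr FGF and 46.5 FPKM in 4 hr PDGF.

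In the death receptor list *Cflar*, which encodes the caspase-8 inhibitor FLIP, measured 10.8 FPKM in 4 hr FGF + PD and 28.5 FPKM in 4 hr FGF + LY, and 8.47 FPKM in 4 hr PDGF + PD and 21.2 FPKM in 4 hr PDGF + LY. Its order, PD below ligand alone below LY, was that of *Mcl1*. *Fas*, a death receptor, measured 33.9 FPKM in 4 hr FGF + PD, 17.5 FPKM in 4 hr FGF + LY, 20.1 FPKM in 4 hr FGF and 33.7 FPKM in 4 hr PDGF. It measured 48.3 FPKM in 4 hr PDGF + PD and 48.9 FPKM in 4 hr PDGF + LY. Between PD and LY it passed 1.5-fold only with FGF at 4 hr. Of 9 genes compared in that list, 1 was higher (*Cflar*) and 1 lower (*Fas*) with FGF than with PDGF alone. Beside this, 11.0% of all 11598 entries passed 1.5-fold in either direction.

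Of the 3 FOXO genes compared, *Foxo1* measured 2.18 FPKM in 4 hr FGF + PD, 7.02 FPKM in 4 hr FGF + LY and 4.60 FPKM in 4 hr FGF. *Foxo4* measured 10.7 FPKM in 4 hr FGF + PD, 12.4 FPKM in 4 hr FGF + LY and 5.77 FPKM in 4 hr FGF. The log2 ratio of FGF + LY to FGF was 0.61 for *Foxo1* and 1.10 for *Foxo4*, both past 1.5-fold as were 24.0% of all entries, and that of PDGF + LY to PDGF was 0.33 for *Foxo1* and 0.45 for *Foxo4*, both short of it. *Foxo3* stayed within 1.5-fold in all 9 comparisons. The mRNA levels say nothing of where these factors sit in the cell.

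Of the caspase and apoptosome list, 5 genes were compared and at most 2 passed 1.5-fold in any comparison. *Casp6* and *Casp2* were 1.98-fold and 1.86-fold lower in 4 hr FGF + PD than in 4 hr FGF + LY, where 24.2% of all entries passed 1.5-fold. Of the 7 inhibitor of apoptosis genes and their antagonists, *Birc5* (survivin, which also serves in cell division) measured 12.5 FPKM in 4 hr FGF + PD and 8.49 FPKM in 4 hr FGF + LY, against 21.3 FPKM in 4 hr FGF. Its level in 4 hr PDGF was 20.8 FPKM, and it was at most 13.9 FPKM in the inhibitor conditions, so presence of an inhibitor and the sample set cannot be told apart here either.

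**Figure D4:**
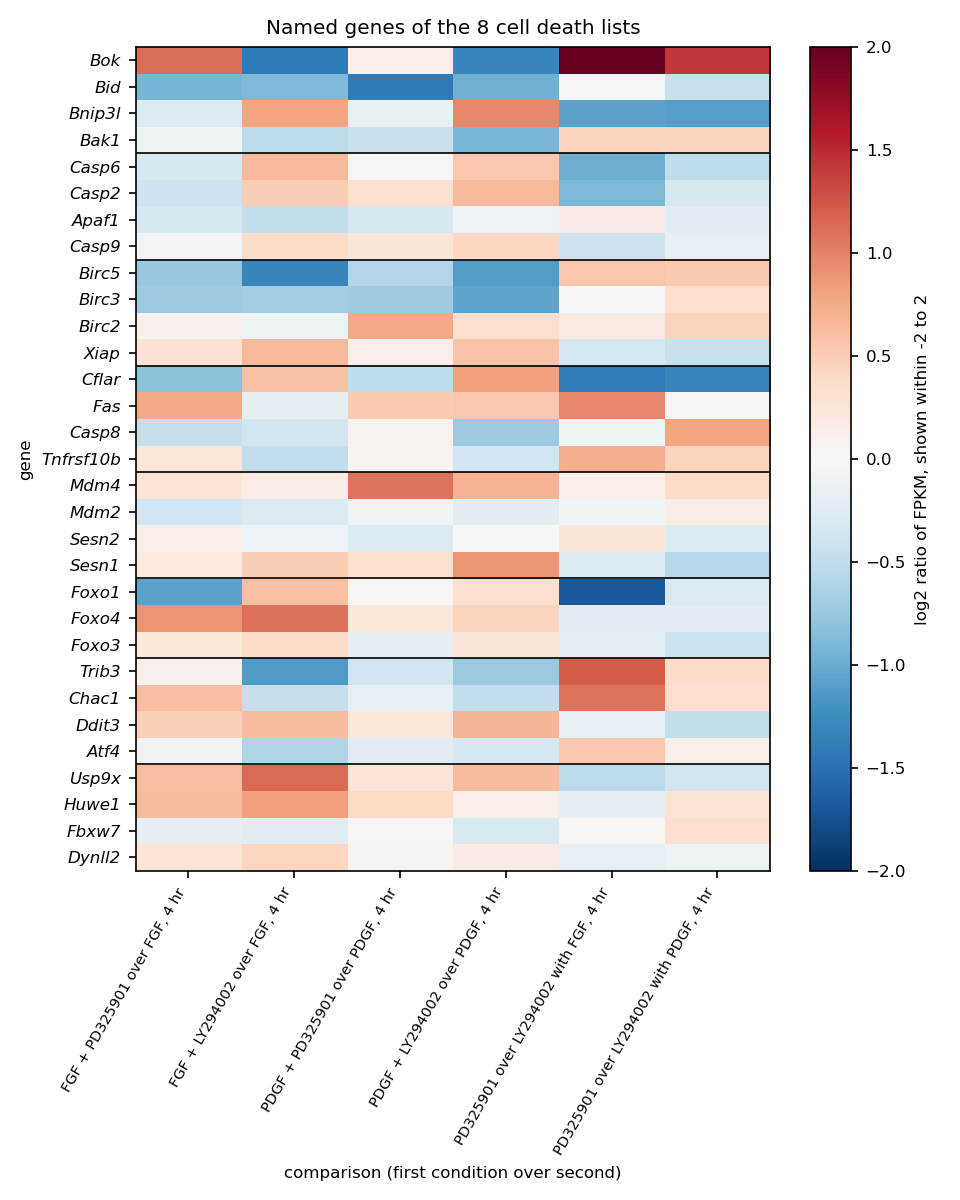
Log2 ratios of FPKM (color, shown within -2 to 2) of the up to 4 genes per list with the largest ratios (y axis, lists divided by lines in the order further family, caspases, inhibitors of apoptosis, death receptors, p53, FOXO, stress response and protein turnover) in 6 comparisons at 4 hr (x axis). Each cell compares 2 pools. *Bok* is red and *Cflar* blue in both comparisons of PD with LY.

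The 3 ERK targets listed as a check (*Dusp6*, *Spry4* and *Etv4*) were all at least 1.5-fold lower with PD than with ligand alone at 4 hr, under both ligands. Of all entries, 23.1% passed that size with FGF and 21.5% with PDGF, in either direction. *Dusp6*, an ERK target, measured 2.16 FPKM in 4 hr FGF + PD and 109 FPKM in 4 hr FGF + LY, against 51.8 FPKM in 4 hr FGF, and 0.996 FPKM in 4 hr PDGF + PD and 12.1 FPKM in 4 hr PDGF + LY, against 10.9 FPKM in 4 hr PDGF. The 3 genes listed for PI3K did not move alike with LY. *Insig1*, a sterol-response gene, measured 28.9 FPKM in 4 hr FGF + LY and 112 FPKM in 4 hr FGF. It was also lower with PD, at log2 ratios to ligand alone of -0.48 with FGF and -0.67 with PDGF. *Pik3ip1* and *Irs2* were higher with LY, at log2 ratios of 0.55 and 0.55 with FGF and of 0.61 and 0.41 with PDGF. Markers of other cell types were low for epithelium (5 genes, summing to 1.05 to 9.14 FPKM), endothelium (4 genes, 1.42 to 6.11 FPKM), macrophages and blood (3 of 4 genes found, 0.730 to 2.02 FPKM) and red cells (1 of 3 found, at most 0.349 FPKM). The muscle list summed to 12.2 to 26.6 FPKM, most of it *Acta1*, with *Myod1* at 0 in 5 conditions. The neuron and glia list summed to 75.5 to 151 FPKM, nearly all of it *Tubb3* and *Stmn2*, with *Sox10* at most 1.10 FPKM. *Tubb3* moved with the inhibitors as *Bok* did, at 73.2 FPKM in 4 hr FGF + PD, 13.7 FPKM in 4 hr FGF + LY and 40.5 FPKM in 4 hr FGF, and its part in the values of the 10 genes was not tested. In such bulk samples fewer cells of a type and less RNA per cell cannot be told apart.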

How the data were processed

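RNA-seq of MEPMs was read from 1 table of FPKM. Per the study's methods and the submitters' processing notes, the authors used CASAVA, TopHat and Cuffdiff on mm10, and the deposited FPKM are 1 value per RefSeq entry and condition, pooled over samples. Pooling removes the spread between litters, so no p-value or SD could be given. FPKM carry no read totals, and read numbers per sample, stated as a range in the study's methods, could not be tied to a condition. A further 3 condition columns belong to other samples and were not used. The 10 members, the lists and the size rule were chosen with earlier results of these data known. RefSeq identifiers were mapped with GRCm38.p6 and GENCODE M21 tables (22870 of 23286 entries to 1 symbol). Ratios used no pseudocount, entries above 1 FPKM in either condition and a size of 1.5-fold; medians held log2 ratios within 5. Named genes were all 10 members, and up to 4 per list with the largest ratio at 5 FPKM or more. A gene of the fixed lists is not reported here and was left out of their counts. Alternatives were other sizes, pseudocounts, filters, a median-centred scale and summed entries. Python 3.11.15, pandas 2.3.3, NumPy 2.4.6 and matplotlib 3.10.9 were used.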

Additional observations from a re-analysis of the deposited data

How the results depend on the processing

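No paired analysis was possible because the deposited columns are pooled over replicates, and for the same reason no replicate could be left out in turn. No called log2 ratio of a member changed sign under any of the 8 alternatives, and of the 80 member ratios 10 crossed the size rule at 2-fold, 19 at a ratio of 5 to 4 and 1 with a pseudocount of 1. A pseudocount of 0.1, a median ratio set to 0 and summed entries moved no count of members by more than 1.5 times. At a 2-fold size, the members past it were 1 in place of 2 in FGF + LY against FGF, 3 in place of 5 in PDGF + PD against PDGF, 1 in place of 2 in PDGF + LY against PDGF, and 2 in place of 5 in PD against LY with PDGF at 1 hr. All entries past 2-fold made up 2.53% to 10.4%, with 7.72% in PDGF + PD against PDGF. At a ratio of 5 to 4 the members were 4 in place of 1 in FGF against PDGF, 5 in place of 2 in FGF + PD against FGF, in FGF + LY against FGF and in PDGF + LY against PDGF, and 5 in place of 3 in PD against LY with FGF at 1 hr, while all entries past it made up 28.2% to 49.6%. With a pseudocount of 1, FGF + LY against FGF gave 1 in place of 2, *Bmf* being lost. With at least 5 FPKM in either condition, *Bcl2* and most *Bmf* ratios were not compared, and the members were 0 in place of 1 in FGF against PDGF, 1 in place of 2 in FGF + PD and in FGF + LY against FGF, and 3 in place of 5 in PD against LY with PDGF at 1 hr. Only 6 members were compared in the first 2 of these and 7 in the others, and the shares of all entries were 8.68%, 19.1%, 19.7% and 10.4%. With no filter FGF + PD against FGF gave 4 in place of 2, now of 10 compared and beside 39.2% of all entries. The results on *Bcl2* and *Bmf* rest on values under 6 FPKM, whose spread between samples is unknown.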

Other observations

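Of the 10 members, only *Mcl1* and *Bcl2l11* stood highest in the 1 hr FGF + LY condition, and *Bcl2l1* stood lowest there, at 18.4 FPKM. The share of all entries that peak in this condition was not counted. *Mcl1* (157 FPKM) and *Bcl2l11* (13.1 FPKM) peaked there among the 10 conditions, as did *Mdm2*, which encodes the ligase that degrades p53, with 144 FPKM in 1 hr FGF + PD and 299 FPKM in 1 hr FGF + LY. *Ddit3*, a transcription factor of the stress response, measured 121 FPKM in 1 hr FGF + PD and 346 FPKM in 1 hr FGF + LY. Its list partners went the other way, with *Trib3* at 44.6 FPKM in 1 hr FGF + PD and 11.0 FPKM in 1 hr FGF + LY, and *Atf4* at 280 FPKM in 1 hr FGF + PD and 161 FPKM in 1 hr FGF + LY. Of the 10 p53 genes only *Mdm2* was at least 1.5-fold lower in 1 hr FGF + PD than in 1 hr FGF + LY, and *Sesn2* was the only one higher, which is near the 19.8% of all entries past that size.

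Of 6 genes that act on BCL2 family proteins after translation, 2 were at least 1.5-fold higher in FGF + LY than in FGF. Of all entries, 24.0% passed that size there in either direction. None of the 6 passed it between PD and LY in the 4 matched pairs. *Usp9x*, a deubiquitinase of MCL1, measured 29.2 FPKM in 4 hr FGF + LY and 13.3 FPKM in 4 hr FGF. *Huwe1*, a ligase that marks MCL1 for degradation, measured 27.1 FPKM in 4 hr FGF + LY and 15.3 FPKM in 4 hr FGF. FGF + PD was also above FGF, by log2 ratios of 0.62 for *Usp9x* and 0.63 for *Huwe1*, and PDGF + LY was above PDGF by 0.63 for *Usp9x* and 0.12 for *Huwe1*. Both genes were lower in both ligand-alone conditions than in all 8 inhibitor conditions, as were 9.25% of entries, so presence of an inhibitor and the sample set cannot be told apart for them.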
